A study of Mus musculus with 9 samples.

Results

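In the mouse spleen, 803 CpGs with high methylation in naive B cells had little in plasma cells. They were chosen by 2 measured levels: 80% or more of the pooled reads methylated in naive B cells, and 20% or less in plasma cells, where all 9 libraries had a coverage of 10 reads or more. They make up 0.225% of the 356320 CpGs with that coverage and 0.392% of the 204818 whose naive B level reached 80%, here called high-start CpGs. The 803 are called switching CpGs. Their levels in naive B cells and plasma cells are therefore given as a description, while plasmablasts were not used to choose them.

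The libraries were made by reduced representation bisulfite sequencing, which reads methylation near MspI cut sites, from female C57Bl/6J mice aged 10 weeks, with 3 libraries per stage. Naive B cells were sorted from spleens of control mice as B220+ CD43- cells. Plasmablasts (CD138+ with intermediate B220) and plasma cells (CD138+ with low B220) were both sorted from spleens on day 3 after LPS, a bacterial cell wall component that activates B cells. The labels do not say which mice the libraries came from, so the spread between libraries may be technical. The p-values of single CpGs rest mostly on read counts and on a spread shared over CpGs. They reflect little of how far the libraries vary at that CpG. Sorted populations were measured in bulk, so a share of cells without methylation and a share of alleles without it in each cell cannot be told apart.

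A methylated CpG is copied onto the new DNA strand at each division by the maintenance enzyme Dnmt1, and methylation is lost when this copying fails or when Tet enzymes oxidise the methyl group. Activated B cells divide many times before they become antibody-secreting plasma cells. DNA methylation at promoters and enhancers is known to accompany low activity of those elements.

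Each library held between 16037172 and 29948088 read counts in total. Over the 78187 CpGs that averaged under 5%, methylation was 0.749% in naive B cells 1, 3.13% and 2.63% in naive B cells 2 and 3, 2.08% to 6.11% in plasmablasts and 1.07% to 1.16% in plasma cells. Naive B cells 1 and the plasma cells thus formed a set with low background, and naive B cells 2 and 3 and the plasmablasts a set with high background. Within the LPS groups, background and stage cannot be told apart. Plasma cells 1 stood above the other plasma cell libraries at switching CpGs, and without that library the same rule chose 1084 CpGs. Methylation does not report expression, so the labelled cell types could be set only against their marker loci. Over tested CpGs, 4 plasma cell marker genes averaged 29.4% in plasma cells and 49.8% in naive B cells, 6 B cell marker genes 46.4% in plasma cells and 64.8% in naive B cells, and the marker sets of other blood cells 48.8% to 54.6% in plasma cells and 61.8% to 72.5% in naive B cells. Among all these markers only Sdc1, which encodes the sort marker CD138, held a switching CpG.

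Cd80, which encodes a costimulatory ligand on activated B cells, shows the switch around a pair of annotated start sites, and Mbnl2, which encodes a splicing regulator, shows it beside an annotated start of a gene whose other start was low at every stage; both were chosen after their values were seen. The sequences are the 250 bases upstream of a RefSeq start in build GRCm38.p6, read 5′ to 3′ on the plus strand, at chr16:38458683-38458932 for Cd80 and chr14:120275419-120275668 for Mbnl2. Capitals mark the CpGs that the deposited table measured, placed by their distance from the start because the table uses build mm9.
Cd80: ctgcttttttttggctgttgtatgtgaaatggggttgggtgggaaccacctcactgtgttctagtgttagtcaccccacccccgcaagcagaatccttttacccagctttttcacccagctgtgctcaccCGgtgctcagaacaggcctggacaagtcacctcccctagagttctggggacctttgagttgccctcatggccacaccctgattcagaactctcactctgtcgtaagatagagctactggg
Mbnl2: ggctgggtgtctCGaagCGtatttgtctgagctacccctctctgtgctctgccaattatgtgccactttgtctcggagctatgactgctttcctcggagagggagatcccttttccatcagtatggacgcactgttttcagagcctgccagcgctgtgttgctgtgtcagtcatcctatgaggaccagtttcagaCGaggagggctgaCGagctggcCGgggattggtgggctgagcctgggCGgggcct

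The measured CpG in the Cd80 stretch, 119 bp upstream of the start, was already intermediate in naive B cells and is not a switching CpG. Pooled reads gave 47.5% for naive B cells, 6.90% for plasmablasts and 2.03% for plasma cells. A switching CpG 71 bp downstream of another annotated Cd80 start, in an exon (chr16:38459129, mm9), had 83.3%, 88.0% and 80% in the naive B libraries, 5.88%, 13.6% and 4.17% across plasmablast libraries, and then 4.65%, 0% and 0% in the plasma cell libraries. Another Cd80 switching CpG, 583 bp upstream of the start used for the sequence (chr16:38458429, mm9), had 95.5%, 91.4% and 88.2% in naive B cells, then 31.2%, 44.4% and 21.1% in plasmablasts, and 9.38%, 15.6% and 18.9% in plasma cells. At both CpGs every plasmablast library lay below every naive B library. That held at 800 of the 803 switching CpGs and 38.6% of all tested CpGs, so it is not particular to Cd80.

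The Mbnl2 stretch was low at every stage: 5 of its 6 CpGs in capitals passed the coverage minimum, with pooled levels of at most 9.09% at any stage. The CpG 280 bp upstream of the same start, just outside the stretch, had 14.1% for naive B cells, 10.3% for plasmablasts and 3.36% for plasma cells. The Mbnl2 switching CpG lay 80 bp downstream of another annotated start (chr14:120705755, mm9). It had 85.3%, 77.1% and 78.6% in naive B cells, 24.3%, 31.9% and 35.3% in plasmablasts and 16.7%, 7.69% and 10.4% in plasma cells.

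Over all 803 switching CpGs, naive B cells had a mean level of 89.4% ± 1.14, plasmablasts of 29.5% ± 3.16 and plasma cells of 11.9% ± 3.57 (SD, n = 3 libraries each). The libraries stood at 88.2%, 90.4% and 89.7% in naive B cells, 26.5%, 32.8% and 29.2% in plasmablasts and 16.1%, 9.95% and 9.79% in plasma cells. The stages did not overlap, and plasma cells 1 was the highest of its group. The other 204015 high-start CpGs had means of 95.4% ± 0.820 at the naive stage, 83.2% ± 0.496 in plasmablasts and 78.1% ± 2.38 in plasma cells. Switching CpGs therefore started lower than those CpGs by the mean and stood far below them in plasmablasts, the stage not used to choose them.

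**Figure D1:**
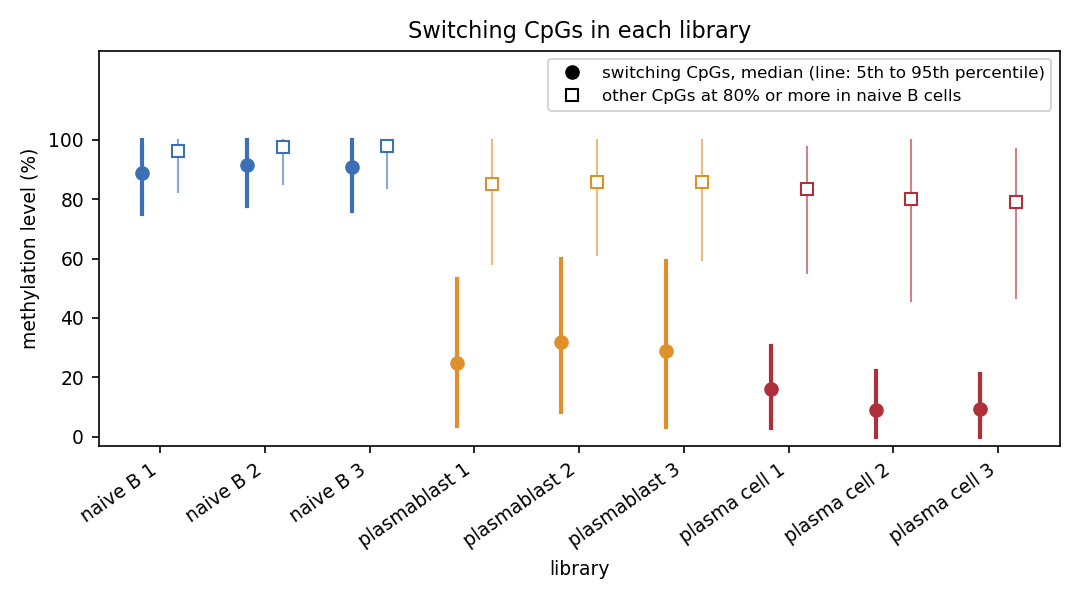
Methylation level (%) of the 803 switching CpGs (filled circles, median over CpGs) and of the other high-start CpGs (open squares) in each of the 9 libraries, with lines from the 5th to the 95th percentile over CpGs. Medians of switching CpGs lie at 88.9% to 91.5% in naive B cells, 25% to 31.9% in plasmablasts and 9.09% to 16% in plasma cells.

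Most of the switch was already present in plasmablasts. The pooled plasmablast level had a median of 29.4% over switching CpGs and ran from 1.82% to 79.3%. In plasmablasts 221 switching CpGs (27.5%) were at 20% or less, 391 (48.7%) between 20% and 40%, 174 (21.7%) between 40% and 60%, 17 (2.12%) between 60% and 80%, and 0 at 80% or more. Of the other high-start CpGs, 9 of 204015 were at 20% or less in plasmablasts and 68.5% were still at 80% or more. The median share of the whole fall already present in plasmablasts was 78.0% at switching CpGs, against 65.0% at the other high-start CpGs that were called lower in plasma cells against naive B cells. All 803 carry that last call, which the rule itself used, as do 22.5% of all tested CpGs.

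**Figure D2:**
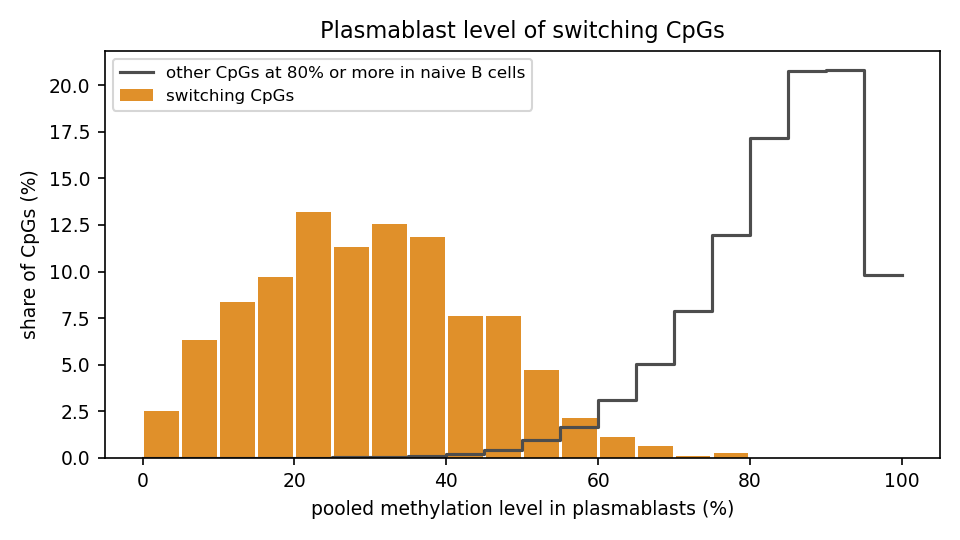
Share of CpGs (%) by pooled methylation level in plasmablasts, in steps of 5 points, for the 803 switching CpGs (bars) and the other high-start CpGs (line). The bars spread between 1.82% and 79.3% with a median of 29.4%, while 68.5% of the other CpGs lie at 80% or more.

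Between plasmablasts and naive B cells, 795 of the 803 switching CpGs were lower in plasmablasts, against 10.4% of all tested CpGs and 16.1% of high-start CpGs. The call came from a quasi-binomial test with limma's moderated dispersion, at an adjusted p under 0.01 with pooled levels 20 points or more apart. No switching CpG was higher, against 0.0615% of all tested CpGs. The naive B libraries served both the choice and the test, and no higher call was possible for a CpG above 80%, so the plasmablast levels are the part of this comparison that the choice did not use. Every plasmablast library lay below every naive B library at 800 of the 803, against 38.6% of all tested and 61.1% of high-start CpGs. The difference had a median of -59.8 points over switching CpGs, against -5.88 points over all tested CpGs. In the authors' deposited table of CpGs that differ between plasmablasts and naive B cells, 768 of the 803 are listed, against 3.31% of tested CpGs.

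The CpGs with the lowest plasmablast levels were taken from the 330 switching CpGs with at least 20 reads in every library. The lowest was a CpG at -12178 bp from the start of Pim1, a serine/threonine kinase gene induced by cytokines (chr17:29615811, mm9). It had 2.78%, 2.5% and 2.33% in plasmablasts, against 92.5%, 100% and 95.6% in naive B cells, and 5.17%, 6.25% and 2.94% in plasma cells. The next was a CpG at -28605 bp from the start of Gm14005, a predicted gene (chr2:128283693), with 2.56%, 7.50% and 0% in plasmablasts, against 86.5%, 95% and 83.3% in naive B cells. In an intron of Taok3, a kinase gene (chr5:117610857), the plasmablast libraries had 12.5%, 0% and 0%, against 79.2%, 85.2% and 92.6% in naive B cells. The plasma cell libraries had 0%, 9.46% and 1.11% at the Gm14005 CpG and 0%, 3.03% and 4.76% at the Taok3 CpG, overlapping the plasmablast libraries, and at the Pim1 CpG they lay at 2.94% or higher, above all plasmablast libraries. These CpGs were picked for their plasmablast level, so their values are a description.

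At the other end, 3 CpGs kept most of their methylation in plasmablasts. A CpG in an exon nearest to 2200002D01Rik (chr7:30048748) had 20.8%, 20.5% and 17.1% in plasma cells, against 63.4%, 83.9% and 74.0% in plasmablasts, while all naive B libraries stood at 100%. A CpG at -74653 bp from the start of Ado, which encodes a thiol dioxygenase (chr10:67086357), had 34.4%, 22.2% and 4% in plasma cells, against 60.7%, 78.1% and 68.2% in plasmablasts. In the promoter of Incenp, which encodes a subunit of the chromosomal passenger complex needed for mitosis (chr19:9970782), the levels were 26.2%, 13.5% and 14.0% in plasma cells, against 66.7%, 67.6% and 64.5% in plasmablasts. Plasma cell and plasmablast libraries did not overlap at any of these CpGs, which were picked for high plasmablast levels among CpGs that the rule made low in plasma cells.

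Of the 803, 8 were not called between plasmablasts and naive B cells. The CpG with the smallest difference between plasmablasts and naive B cells lay in an intron of Ece1, which encodes an endothelin-converting protease (chr4:137439171, named after its value was seen). It had 75%, 83.3% and 80% in plasmablasts, against 61.5%, 90.0% and 89.7% in naive B cells, and 25%, 15.4% and 10.0% in plasma cells. Its plasmablast libraries lay within the range of the naive B libraries, among which naive B cells 1 was well below the other two.

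Between plasma cells and plasmablasts, 146 of the 803 switching CpGs were lower in plasma cells by the quasi-binomial test, against 0.493% of all tested CpGs and 0.511% of high-start CpGs. None was higher, against 0.000561% of all tested CpGs. Plasma cells were chosen to be low at these CpGs, so the count of 146 leans toward a fall. The same choice left almost no room for a higher call, so the absence of higher calls says nothing. The difference had a median of -16.5 points over switching CpGs and -3.85 points over all tested CpGs. Every plasma cell library lay below every plasmablast library at 469 of the 803, against 17.4% of all tested and 16.4% of high-start CpGs. At an unadjusted p under 0.05, 536 of the 803 were lower, against 17.5% of all tested CpGs. At 27 switching CpGs the pooled plasmablast level was below that of plasma cells.

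The count of 146 depended on how the spread was estimated and on single libraries. With the dispersion prior taken from all CpGs, as the test was first written, it was 0 of 803 (and 677 of 803 between plasmablasts and naive B cells), and with the background set as a term in the model it was 0 of 803, against 790 of 803 between plasmablasts and naive B cells. Limma on log2 ratios called 21 and Fisher's exact test on pooled reads 229. The count was 31 without plasmablasts 2, 68 without plasmablasts 3, 62 without plasma cells 2, 41 without plasma cells 3, and 161 without plasma cells 1. The background level was 1.07% to 1.16% in plasma cells and 2.08% to 6.11% in plasmablasts, and its part in the difference was not tested. Set and stage coincide between these groups, so the term was fitted only from the naive B libraries. Its count of 0 therefore cannot tell background from stage.

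The genes closest to switching CpGs numbered 421 of 17777 with a tested CpG (2.37%), covering 718 of the 803; the other 85 carried no gene symbol. Of the 421 genes, 279 held 1 switching CpG and 70 held 2. Gm14005 held the most, 10 of its 40 tested CpGs, in 4 separate places. Over these 10 the means were 86.6%, 88.8% and 93.6% in the naive B libraries, 7.38%, 13.0% and 9.91% across plasmablast libraries, and then 5.76%, 4.93% and 3.83% in the plasma cell libraries. All 10 were called lower in plasmablasts than in naive B cells. The same call held for 795 of the 803 switching CpGs and 10.4% of all tested CpGs, so full counts are not particular to a gene.

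Nfatc1, which encodes a transcription factor activated through the antigen receptor and calcineurin, held 9 switching CpGs of 73 tested, 8 of them in introns and spread over 7 places. Their mean was 27.6%, 38.3% and 24.2% in plasmablasts, against 88.3%, 91.0% and 93.1% in naive B cells, and 20.8%, 10.4% and 7.86% in plasma cells. All 9 were called lower in plasmablasts, as were 795 of the 803 switching CpGs and 10.4% of all tested CpGs. Cnp, which encodes a cyclic nucleotide phosphodiesterase best known from myelin, held 8 of 25, with 30.4% ± 1.60 in plasmablasts and 87.9% ± 1.97 in naive B cells (SD, n = 3 each). Tmem154, a transmembrane protein gene, held 8 of 26. Over these 8 the means were 29.7%, 32.8% and 42.6% in plasmablasts, against 88.4%, 95.7% and 92.4% in naive B cells, and 14.6%, 8.06% and 6.65% in plasma cells.

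A further 9 genes held 6 switching CpGs each, and all of those CpGs were called lower in plasmablasts than in naive B cells. So were 795 of the 803 switching CpGs and 10.4% of all tested CpGs. The means of the 9 genes over switching CpGs ran from 10.6% in plasmablasts at D6Ertd527e to 45.3% at Cdc42bpb, which encodes a kinase acting downstream of the small GTPase Cdc42. Taok3 stood at 18.3% ± 8.73 in plasmablasts and 94.6% ± 2.60 in naive B cells, and Rapgef1, which encodes an exchange factor for Rap GTPases, at 18.9% ± 2.93 in plasmablasts and 89.9% ± 2.87 in naive B cells. Skil, which encodes a repressor of SMAD signalling, stood at 25% ± 1.68 in plasmablasts and 96.0% ± 1.81 in naive B cells (SD, n = 3 each). Bcar3, an integrin signalling adaptor gene, stood at 24.0% in plasmablasts and 88.8% in naive B cells, and Pced1b at 33.2% in plasmablasts and 87.5% in naive B cells. Foxp1, a forkhead transcription factor gene, fell outside the 12 genes named by count only through the order of ties, and stood at 25% ± 8.0 in plasmablasts and 87.5% ± 2.08 in naive B cells.

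**Figure D3:**
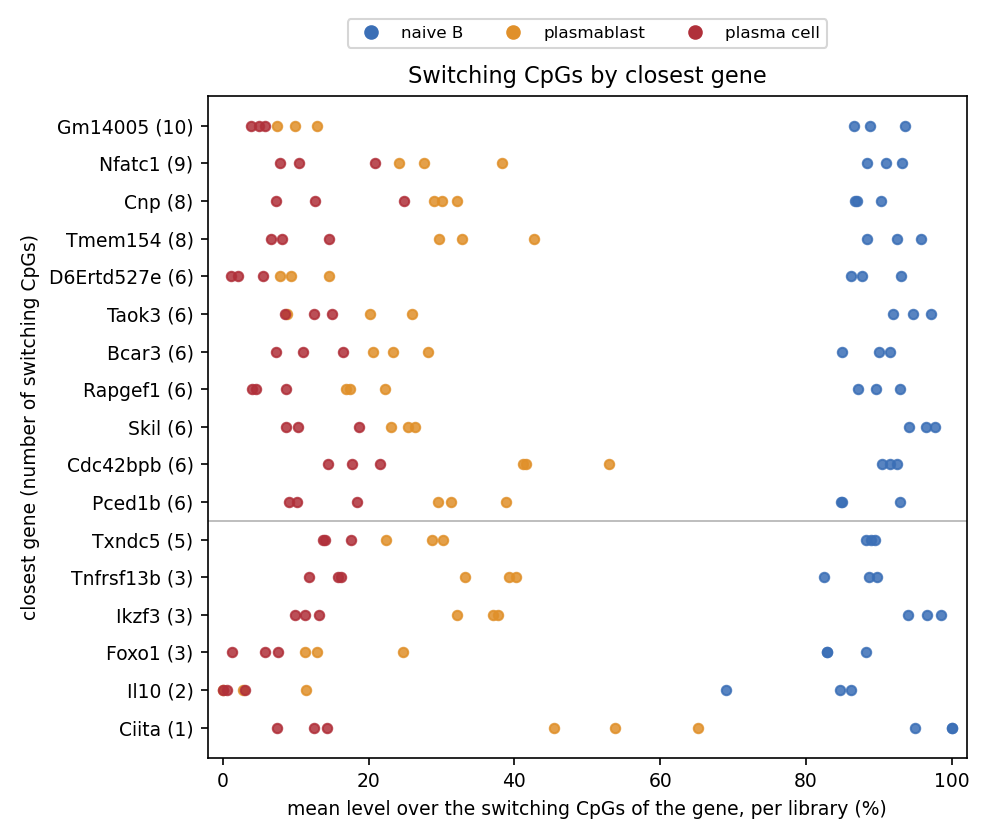
Mean methylation level (%) over the switching CpGs of each gene, 1 point per library, for 11 of the 12 genes with most switching CpGs (above the line) and 6 further named genes (below it); the number of switching CpGs is in brackets. Plasmablast points lie left of all naive B points in each gene, and reach the plasma cell points at Taok3 and Il10.

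Of 25 tested genes of the plasma cell program, 5 (20%) held at least 1 switching CpG, against 2.37% of all genes. Together they held 12, which is 3.24% of the 370 high-start CpGs of that list, against 0.406% over all genes. The share was 1.86% for genes of mature B cell identity, so a share above that of all genes was not particular to this list. For NK cell markers it was 3.57%, with 2 of 56 high-start CpGs. These 2 lay within 6 bp near Tbx21, so that share rests on 1 place. All gene lists were chosen with earlier results of these data known, so these shares are a description. Txndc5, which encodes a disulphide isomerase of the endoplasmic reticulum, held 5, at 30.2%, 28.7% and 22.4% in plasmablasts, against 89.5%, 89.0% and 88.3% in naive B cells. Tnfrsf13b, which encodes the receptor TACI for the survival factors BAFF and APRIL, held 3 in an intron 2496 to 2661 bp from its start, at 40.3%, 39.3% and 33.2% in plasmablasts, against 88.6%, 82.5% and 89.7% in naive B cells. Zbtb20, a transcription factor gene needed for long-lived plasma cells, held 2, at 31.2% ± 9.19 in plasmablasts and 94.1% ± 5.46 in naive B cells. The Sdc1 CpG, in an exon 19974 bp from the start, had 28.6%, 27.3% and 36.4% in plasmablasts, against 89.5%, 96.8% and 93.3% in naive B cells. Arid3a was the other gene of the list. Irf4, Prdm1 and Xbp1, the transcription factor genes that drive plasma cell formation, held none among 5, 40 and 7 tested CpGs, of which 0, 24 and 3 were at 80% or more in naive B cells and so could have qualified.

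Genes of mature B cell identity held switching CpGs as well: 6 of 33 tested genes, with 10 CpGs, or 1.86% of the 537 high-start CpGs of that list. Ikzf3, which encodes the transcription factor Aiolos, held 3 within 206 bp of an intron, at 32.1%, 37.7% and 37.0% in plasmablasts, against 96.6%, 94.0% and 98.6% in naive B cells. Foxo1, a transcription factor gene of resting B cells, held 3, at 11.2%, 24.7% and 13.0% in plasmablasts, against 82.9%, 88.3% and 82.8% in naive B cells. The intronic CpG of Ciita, the regulator of MHC class II genes, had 7.41%, 12.5% and 14.3% in plasma cells, against 65.2%, 53.8% and 45.5% in plasmablasts and 94.9%, 100% and 100% in naive B cells. Swap70, a regulator of actin and Rac in B cells, Blnk, the linker of antigen receptor signalling, and Tcf4, an E protein gene, held the others. Pax5, Bach2, Ebf1 and Ikzf1, transcription factor genes of B cell identity, held none among 94, 59, 43 and 16 tested CpGs. Of these CpGs, 52, 33, 22 and 5 were high-start and could have qualified. With 0.392% of high-start CpGs switching, a count of 0 among so few says little, here and for the other genes named as holding none.

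In the TLR4 and NF-kB list, a pathway activated by LPS, 2 of 29 genes held a switching CpG. The 2 CpGs nearest to Il10, which encodes a cytokine that dampens inflammation, lay 27058 and 27090 bp downstream of its start. The first (chr1:132943481) had 3.64%, 8.57% and 0% in plasmablasts, against 88.2%, 69.0% and 76.9% in naive B cells, and 2.99%, 0% and 0% in plasma cells. Its naive B pooled level of 80.6% was just inside the threshold. Ly86, which encodes MD-1, the partner of the LPS-response receptor CD180, held 1 in an intron, at 34.8%, 46.9% and 45.5% in plasmablasts, against 93.2%, 98.3% and 97.2% in naive B cells. Traf1 and Cd180 held none among 21 and 49 tested CpGs, of which 7 and 44 were high-start.

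In the other lists switching CpGs were single or in pairs. Homing and adhesion receptors counted 3 of 20 genes, each with 1 CpG: Cd44, a hyaluronan receptor gene, at 48.0% ± 4.35 in plasmablasts and 96.4% ± 3.19 in naive B cells, Klf2, a regulator of lymphocyte trafficking, at 27.1% ± 13.9 in plasmablasts and 87.7% ± 4.04 in naive B cells, and Ackr3, a chemokine scavenger receptor gene, at 11.4% ± 7.24 in plasmablasts and 84.0% ± 1.39 in naive B cells. Cxcr4, the chemokine receptor gene of bone marrow homing, held none among 52 tested CpGs, of which 45 were high-start. The DNA methylation machinery counted 3 of 24 genes. Apobec1, an mRNA-editing cytidine deaminase gene, held 2 of its 3 tested CpGs, at 22.2%, 24.3% and 18.8% in plasmablasts, against 95.1%, 90.6% and 92.2% in naive B cells. Tet3, a methylcytosine dioxygenase gene, held 1, at 28.4% ± 1.08 in plasmablasts and 87.1% ± 2.14 in naive B cells. Idh2, whose mitochondrial enzyme makes the cofactor of Tet enzymes, held 1, at 52.0% ± 9.72 in plasmablasts and 86.7% ± 10.5 in naive B cells. Tet2 and Dnmt1 held none among 26 and 29 tested CpGs, of which 20 and 27 were high-start.

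In the unfolded protein response and secretion list 2 of 33 genes held 1 each. Creld2, a gene induced by stress of the endoplasmic reticulum, had 3.57%, 22.9% and 6.98% in plasmablasts, against 92.0%, 93.8% and 92.9% in naive B cells, with plasmablasts 2 above the other two. Ssr1, a translocon component, stood at 30.9% ± 3.42 in plasmablasts and 94.7% ± 4.93 in naive B cells. Proliferation genes counted 1 of 21 (Ccnd2, a D-type cyclin gene) and T cell markers 1 of 19 (Tcf7). NK cell markers counted 1 of 6 (Tbx21, a transcription factor gene also used by some activated B cells). Myeloid markers counted 0 of 14 and erythroid and stem cell markers 0 of 16, with only 126 and 357 high-start CpGs. At the 2 Tbx21 CpGs at -12695 and -12700 bp from its start, the mean was 13.6%, 10.0% and 1.61% in plasmablasts, against 83.3%, 89.3% and 100% in naive B cells. Counts of genes are set against 2.37% of all genes and are not adjusted for how many CpGs each gene had.

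Most switching CpGs had no other CpG close by that met the rule. Joined where the gap was at most 200 bp, the 803 formed 588 segments, of which 454 held 1 CpG (56.5% of the 803) and 134 held 2 or more, taking in 349 CpGs (43.5%). The longest spanned 383 bp. In 117 of the 134, no tested CpG between the first and last failed the rule, and 27 CpGs in all did so in the others. Of the 454 single switching CpGs, 205 had another tested CpG within 50 bp, which did not meet the rule. The others had no tested CpG that close. Levels also fell at neighbours that missed the rule. The 213 high-start CpGs within 50 bp of a switching CpG that did not meet it averaged 93.2% in naive B cells. Their means were 53.4% in plasmablasts and 34.3% in plasma cells. They lay beside switching CpGs of any segment size, and levels beside single switching CpGs were not taken apart. CpGs within a read length of 50 bases can lie on the same reads and are not independent.

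The most CpGs in a segment were 6, in 3 segments. The one lowest in plasmablasts among these 3 spanned 228 bp, at -11186 to -10959 bp from the start of D6Ertd527e (chr6:87043553-87043780). Its mean was 7.84%, 14.6% and 9.35% in plasmablasts, against 93.1%, 87.7% and 86.1% in naive B cells, and 5.46%, 2.03% and 1.11% in plasma cells. The Rapgef1 segment held 6 in 240 bp of an intron, 1547 to 1786 bp from the start (chr2:29476788-29477027). It stood at 22.2%, 16.9% and 17.4% in plasmablasts, against 87.1%, 89.6% and 92.9% in naive B cells, and 8.62%, 4.59% and 3.97% in plasma cells. All 6 tested CpGs inside each of these segments met the rule. In the Cnp segment (chr11:100437698-100438080, exon) 6 of 11 tested CpGs did, at 32.8% ± 3.07 in plasmablasts and 88.8% ± 2.66 in naive B cells.

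Of the 6 segments with 5 CpGs, 3 lay in introns nearest to Gm14005 (chr2:128156856-128157111), Taok3 (chr5:117610857-117611070) and Gm6402, a predicted gene (chr17:30444259-30444446). The Gm14005 segment had 4.48%, 11.7% and 8.13% in plasmablasts, against 82.8%, 80.5% and 95.8% in naive B cells, and 5.40%, 4.27% and 2.31% in plasma cells. The Taok3 segment had 24.5%, 19.6% and 7.23% in plasmablasts, against 90.6%, 94.3% and 97.1% in naive B cells, and 13.5%, 6.04% and 12.4% in plasma cells. The Gm6402 segment had 21.8%, 26.7% and 24.7% in plasmablasts, against 91.7%, 98.6% and 93.0% in naive B cells, and 11.5%, 2.70% and 4.47% in plasma cells. Naive B libraries stood far above the others in these 3 segments, while plasma cell and plasmablast libraries overlapped in the Gm14005 and Taok3 segments. The other segments with 5 CpGs averaged 25.9% in plasmablasts in an exon of Skil, 30.6% in the promoter of Ano6 and 45.1% in an exon of Trim72. Within the Gm14005 segment the pooled plasmablast levels of the 5 CpGs differed by at most 5.93 points, and within the Gm6402 segment by up to 34.5 points.

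Outside the switching CpGs themselves, the level around them was read from CpGs that the rule could not use, because some library had under 10 reads. These 310 CpGs had at least 5 reads in every library and lay 51 to 500 bp from a switching CpG, beyond a shared read. Their mean was 37.5%, 30.2% and 31.9% in the plasma cell libraries, against 71.8%, 74.3% and 73.2% in the naive B libraries, a difference of -39.9 points (exact two-sided permutation p = 0.1, the smallest that 3 against 3 libraries allow). In plasmablasts it was 42.7%, 48.5% and 45.9%, or -27.4 points set against naive B cells (exact permutation p = 0.1). The groups did not overlap. Around the other high-start CpGs, 43586 CpGs of the same kind averaged 71.9% in plasma cells and 88.6% in naive B cells, a difference of -16.7 points.

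The difference was smaller at greater distance. Between plasma cells and naive B cells it was -73.2 points over 48 thinly read CpGs within 50 bp of a switching CpG, -49.2 points over 93 at 51 to 200 bp, -36.0 points over 217 farther out up to 500 bp, -17.1 points over 126 beyond those up to 1000 bp and -12.2 points over 1004 up to 5000 bp. CpGs within 50 bp can share reads with a switching CpG. Around the other CpGs it was -13.9 points within 50 bp and -10.3 points between 1000 and 5000 bp. Of the 310 CpGs, 196 were at 80% or more in naive B cells, and 44 of these were at 20% or less in plasma cells. The naive B level itself was lower beyond 500 bp of a switching CpG, at 46.9% up to 1000 bp. It was likewise lower beyond 500 bp of the other high-start CpGs, at 59.2% up to 1000 bp, so this drop was not particular to switching CpGs.

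**Figure D4:**
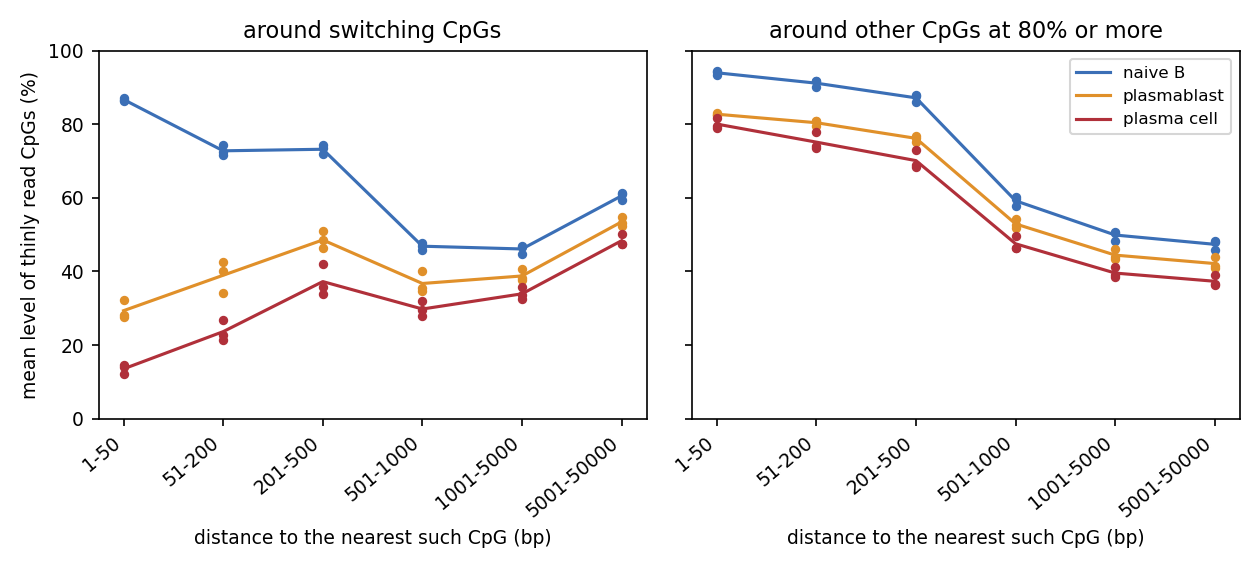
Mean methylation level (%) of CpGs that missed the coverage minimum, by distance (bp) to the nearest switching CpG (left) and to the nearest other high-start CpG (right); points are libraries, lines join the means of 3. Around switching CpGs plasma cells lie 73.2 points below naive B cells within 50 bp and 12.2 points below between 1000 and 5000 bp.

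By position, 414 switching CpGs lay in introns, 258 between genes, 73 in exons and 58 in promoters, by the first of promoter, exon and intron that the deposited annotation gives. Its notes define promoters as 2500 bp upstream to 500 bp downstream of a start, but of all deposited CpGs within 500 bp downstream of the closest start it marks 20.9% as promoter, and 1 of 17 switching CpGs there. By distance alone, 70 switching CpGs (8.72%) and 5.72% of high-start CpGs lay in that window. Introns made up 51.6% of switching and 38.9% of high-start CpGs, and promoters 7.22% of switching and 4.24% of high-start CpGs. Exons made up 9.09% of switching and 13.3% of high-start CpGs, and intergenic sequence 32.1% of switching and 43.6% of high-start CpGs. Of the switching CpGs, 8 lay in 5′ UTRs and 17 in 3′ UTRs. The median distance to the nearest start was 12853 bp for switching CpGs and 21930 bp for high-start CpGs, and 3.11% of switching CpGs lay beyond 100000 bp, against 15.9% of high-start CpGs. Coverage and annotation of these classes differ, and the CpGs of a segment share their class, so no test was made.

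The plasmablast level varied with place, given here as a description. Of the 221 at 20% or less in plasmablasts, 56.6% were intronic and 5.43% exonic, and of the 68 above 50% in plasmablasts, 48.5% were intronic and 20.6% exonic. Switching CpGs within 1000 bp of a start averaged 37.3% in plasmablasts, and those 10000 to 50000 bp away 28.3%. A CpG at 20% or less in naive B cells lay within 1000 bp of 137 switching CpGs (17.1%), against 3.19% of the other high-start CpGs. The number of deposited CpGs within 250 bp was nearly equal, 3.12 at switching CpGs and 3.10 at the others.

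Every autosome carried switching CpGs, from 20 on chromosome 19 to 66 on chromosome 11. As a share of high-start CpGs they ran from 0.277% on chromosome 4 to 0.571% on chromosomes 6 and 15. The X chromosome held 0 of 4548, which allows a share of up to 0.0660%, against 803 of 200091 (0.401%) on autosomes. The lowest pooled plasma cell level among those X-linked CpGs was 24.0%. On X 0.638% of them were at 40% or less in plasma cells, against 1.72% on autosomes. The mean over the X-linked CpGs was 80%, 76.0% and 74.9% in plasma cells, against 93.6%, 95.1% and 95.1% in naive B cells, and the mean over autosomal CpGs was 80.6%, 76.8% and 76.2% in plasma cells, against 94.5%, 95.9% and 95.9% in naive B cells. Females carry an active and an inactive X chromosome, and the reads do not tell them apart.

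**Figure D5:**
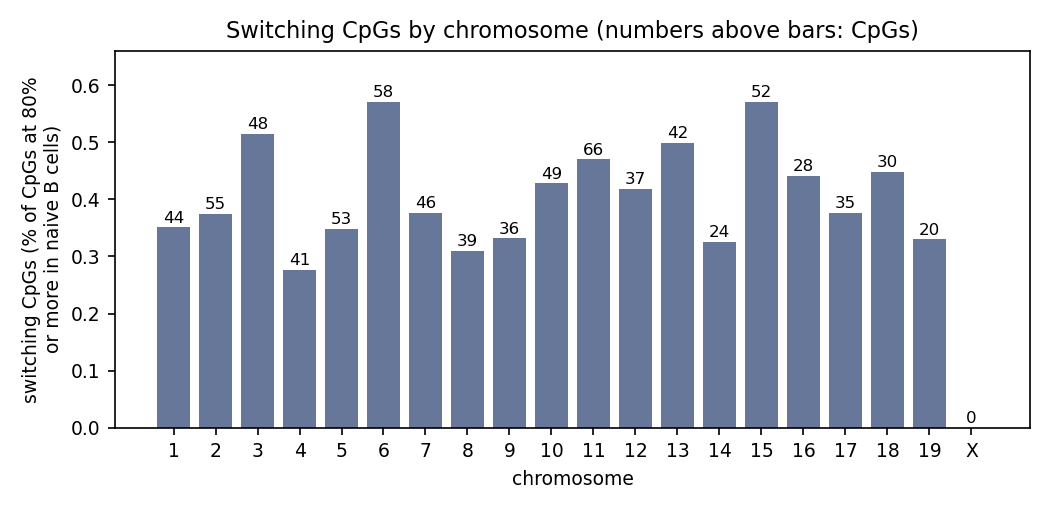
Switching CpGs per chromosome as a percent of high-start CpGs, with their number above each bar. Autosomes run from 0.277% to 0.571%, and X shows 0 of 4548.

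The thresholds fell in a continuous range of levels. Just inside the naive B threshold, 212 switching CpGs had 80% to 85% in naive B cells, and just outside it 187 CpGs had 75% to 80% with 20% or less in plasma cells. The plasmablast mean was 26.1% for those inside and 26.9% for those outside. Just inside the plasma cell threshold, 281 switching CpGs had 15% to 20% in plasma cells, with a plasmablast mean of 40%, and just outside it 345 CpGs had 20% to 25%, with a plasmablast mean of 45.1%. Both thresholds were met in each single naive B and plasma cell library by 328 of the 803, and for 224 the exact (Clopper-Pearson) 95% intervals of both pooled levels lay clear of the thresholds, counting error only.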

How the data were processed

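Methylation was measured in 9 libraries of sorted mouse spleen cells, 3 each of naive B cells, plasmablasts and plasma cells, grouped by GEO's labels. Bismark, Bowtie2 and mouse build mm9 are named in the submitters' processing notes, without versions. The authors deposited counts of methylated and unmethylated reads per CpG and library, with both strands summed per the file headers, for 911004 CpGs. Beside the counts the authors deposited each level as a fraction, which equals methylated over all reads. The closest gene, the distance to its start and the class come from the authors' table. Lists of CpGs that differ from naive B cells were also deposited for each LPS group; the tool behind their p-values is not given here.

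The rule, the gene lists and the comparisons were chosen with earlier results of these data known. The 356320 CpGs with at least 10 reads in each library were fitted with a quasi-binomial logistic model, 1 level per group over all 9 libraries (Python 3.11.15 with numpy 2.4.6 and scipy 1.17.1). The Pearson dispersion was moderated with limma 3.58.1 in R 4.3.3 and never taken below 1. Contrasts used an F test from the deviance, adjusted by Benjamini-Hochberg over all tested CpGs, and calls needed an adjusted p under 0.01 with pooled levels 20 points or more apart.

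The prior of the moderation was at first taken from all CpGs (3.96 prior degrees of freedom). With that prior the test recovered 0% of simulated falls of 80 points in plasma cells against naive B cells, in a simulation of all 356320 CpGs with 200 changed. After its calls on the data had been seen, the prior was restricted to the 130902 CpGs with an expected binomial variance of at least 1 in every library (572 prior degrees of freedom), which recovered 18% of falls of 20 points, 80% of 40 points and 100% of 60 and 80 points. The simulation holds far fewer changed CpGs than the data, so these shares do not carry over to them. Calls with both priors are given. At 572 prior degrees of freedom, the spread of a CpG's own libraries has little weight in its p-value.

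Levels are means over CpGs of each library's level unless called pooled. The background level is a library's mean at CpGs with a mean under 5%, and sets were split at 1.5%. Replicate libraries correlated at 0.956 to 0.986 over CpG levels, shared identical counts at 1.29% of CpGs or fewer, and each was counted as 1 sample. Median coverage of tested CpGs was 24 to 36 reads per library. Reads carry no molecular identifiers and may be PCR copies, so intervals and limits cover counting error only. Promoter sequences come from RefSeq in build GRCm38.p6. Genes named are the 12 with most switching CpGs, of which 1 is not reported here, up to 3 of each list, a short set of regulators, and the segments and single CpGs at the ends of the range.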

Additional observations from a re-analysis of the deposited data

How the results depend on the processing

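No difference in level changed sign under any alternative run, while the counts have no direction that could reverse. The count of switching CpGs lower in plasmablasts than naive B cells (795 of 803) was 330 of the 330 left at 20 reads per library, and 771 to 797 with a library left out. The count lower in plasma cells than plasmablasts (146 of 803) was 64 of 330 at 20 reads, 0 with the background set as a term, 0 with the prior from all CpGs (as the test was first written; the restricted prior behind 146 was chosen after seeing the data, which made the first one an added alternative), 21 by limma on log2 ratios, 229 by Fisher's exact test on pooled reads, 28 at a minimum difference of 40 points, and 31 to 161 with a library left out. Over all tested CpGs that count was 1755, and 6 with the background set as a term, 0 with the prior from all CpGs, 92 by limma and 4336 by Fisher's test. Apart from the smaller number of CpGs at 20 reads and the higher minimum, the cause was not tested.

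The rule chose 330 CpGs at 20 reads, 1424 with thresholds of 75 and 25, 375 with 85 and 15, and 724 to 1084 with a library left out. The neighbour difference of -39.9 points was -49.2 points at 51 to 200 bp and -29.0 points beyond those up to 1000 bp. For 39 named genes and CpGs, 297 alternatives were run on the difference between plasmablasts and naive B cells. The ratio to the value given was 0.803 to 1.19. In 289 of them the move was less than the larger of the replicate SDs. Most of them left a library out, which cannot move a mean of so few libraries by that much, so this count says little.

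Between libraries of the same replicate number, deviations from the group mean correlated at -0.0287 to 0.0302. These deviations include counting error at each CpG, so the correlations cannot show whether such libraries shared a mouse. With the replicate number as a block the counts were 794 and 124. At 10 reads a library's level moves in steps of 10 points, so single levels near a threshold are uncertain.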
